A study of Mus musculus with 6 samples.

Results

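The Cyp2 genes of subfamilies A, B, C, D, F, G and J encode cytochrome P450 enzymes that oxidise drugs, steroids, bile acids and fatty acids. The 40 genes described here are the protein-coding entries of these subfamilies in a table of 55385 genes, chosen by symbol and coding type. Cyp2a5 and Cyp2c29 were left out by name, and earlier results of these data were known when the choice was made. They comprise 3 genes of 2A, 5 of 2B, 14 of 2C, 8 of 2D, 1 of 2F, 1 of 2G and 8 of 2J. RNA was sequenced from the livers of 6 C57BL/6 mice aged 6 weeks, with 2 mice in each of 3 groups. Wild-type controls (replicates 3 and 6) were injected intraperitoneally with 200 µl of PBS. Wild-type mice (replicates 1 and 4) and Optn-/- mice (replicates 4 and 5) were given acetaminophen, abbreviated APAP, at 500 mg/kg by the same route, and livers were collected after 6 h. Optn encodes optineurin, a receptor of selective autophagy, and no Optn-/- mice without acetaminophen were analysed here. The labels do not say in which cells Optn is deleted.

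Cytochrome P450 enzymes sit in the endoplasmic reticulum, hold a haem group and receive electrons from the NADPH-dependent reductase encoded by Por and from cytochrome b5. In liver they are made chiefly by hepatocytes, many of them in the pericentral zone, where acetaminophen is also oxidised to its reactive quinone imine, mainly by CYP2E1 with a part for CYP1A2 and CYP3A enzymes. Liver-enriched transcription factors such as HNF4A, C/EBP proteins and the clock-controlled D-box factors act on many P450 promoters, and the nuclear receptor CAR (Nr1i3) switches on Cyp2b10 after exposure to phenobarbital-like compounds.

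Libraries held 59.1 to 77.3 M counts (M, 1e6), and the 40 genes took 0.755% and 0.871% of them in the controls against 0.618% to 0.669% in the 4 treated mice. The Optn level was 20.95 and 18.7 FPKM (fragments per kilobase of gene model per 1e6 counted fragments) in the controls, 9.17 and 9.19 in treated wild types and 0.316 and 0.457 in the knockouts. Of 12 hepatocyte markers all were detected, with a summed level of 142416 to 178159 counts per 1e6 (CPM). Marker levels of other tissues cut across the groups. The 12 skeletal muscle markers summed to 96.0, 62.2 and 72.6 CPM in control replicate 3 and both treated wild types, against 3.94 to 4.62 CPM in control replicate 6 and both knockouts. The 12 intestinal markers summed to 72.7 to 131 CPM with no such division, since Fabp2, Cdhr5 and Lgals4 made up most of the sum in every library. Within that list, chosen after their values were seen, Muc2, Clca1 and Zg16 were each at 2.89 CPM or more in control replicate 6 and both knockouts and at 0.07 CPM or less in the rest. Neuronal markers summed to 152 CPM in wild-type acetaminophen replicate 4 and to 11.9 to 19.5 CPM elsewhere. The genotype comparison after acetaminophen therefore coincides with the muscle difference, and genotype and muscle trace cannot be told apart there except through the pair of controls, which differ in the trace.

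Sequences of the 4 promoters shown here belong to the members with the largest falls and to the 2 members that rose, and are taken from RefSeq (GRCm38.p6). Each line gives the 250 bases before the gene start, written 5′ to 3′ on the gene's own strand. Capitals mark one match to a motif named after the lines. The motif to mark was chosen gene by gene with the calls known.
Cyp2c37 promoter, chr19:39992174-39992423, plus strand: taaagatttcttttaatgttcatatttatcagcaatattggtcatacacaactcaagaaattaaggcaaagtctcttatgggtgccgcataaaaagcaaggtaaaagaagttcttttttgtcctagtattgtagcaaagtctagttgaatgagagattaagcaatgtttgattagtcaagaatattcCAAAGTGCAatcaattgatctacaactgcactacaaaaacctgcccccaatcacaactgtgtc
Cyp2c38 promoter, chr19:39463076-39463325, minus strand: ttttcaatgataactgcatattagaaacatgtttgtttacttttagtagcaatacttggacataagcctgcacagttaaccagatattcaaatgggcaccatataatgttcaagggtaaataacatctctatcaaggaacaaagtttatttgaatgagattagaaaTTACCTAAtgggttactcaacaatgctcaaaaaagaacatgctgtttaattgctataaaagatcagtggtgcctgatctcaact
Cyp2j8 promoter, chr4:96507398-96507647, minus strand: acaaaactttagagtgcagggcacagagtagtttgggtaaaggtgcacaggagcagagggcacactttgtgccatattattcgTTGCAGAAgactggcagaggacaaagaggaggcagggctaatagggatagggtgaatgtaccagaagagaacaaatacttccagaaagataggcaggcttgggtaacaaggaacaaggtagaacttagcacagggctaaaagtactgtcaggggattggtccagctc
Cyp2j9 promoter, chr4:96591486-96591735, minus strand: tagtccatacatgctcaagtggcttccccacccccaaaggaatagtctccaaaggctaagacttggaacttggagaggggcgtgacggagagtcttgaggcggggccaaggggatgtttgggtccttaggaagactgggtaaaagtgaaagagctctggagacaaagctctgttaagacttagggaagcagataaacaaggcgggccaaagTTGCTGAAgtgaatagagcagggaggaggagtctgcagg
In Cyp2c37 the capitals mark an HNF4 motif (letters CAAAGNNCA) that starts 63 bases before the gene start. In Cyp2c38 they mark a D-box (TTANGTAA, read on the other strand) 84 bases before the start, the only D-box in 33 member promoters, while 2.32% of 32851 RefSeq promoters hold one. In Cyp2j8 and Cyp2j9 they mark a C/EBP motif (TTGCNNAA), 167 and 39 bases before the start. Cyp2c37 holds the C/EBP letters too, left in lower case above, and so does Cyp2c67. Cyp2c38 also holds a TATA box (TATAAA), left in lower case. The TATA box occurred in 18 member promoters and in 13.6% of all promoters. A nuclear receptor half-site (AGGTCA) occurred in 9 (16.3% of all) and an AP-1 motif (TGANTCA) in 1 (7.81% of all). Motifs were searched on both strands over 250 bases before and 50 after each start, RefSeq gave such a window for 33 of the 40 members, and no 2 different motifs overlapped in them.

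The HNF4 letters occurred in 15 of the 33 member promoters and in 6.36% of all promoters. They were found in 8 of 12 promoters of 2C, 5 of 5 of 2D and 2 of 3 of 2A, and in none of the 5 of 2B, the 7 of 2J or the 1 of 2F. The lines below show the motif in capitals with 16 bases on each side, for the 2C genes measured in these livers that hold it and for 3 genes of 2D beside them, to show how far the match and its flanks are shared.
Cyp2c37: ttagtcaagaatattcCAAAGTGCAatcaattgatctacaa
Cyp2c50: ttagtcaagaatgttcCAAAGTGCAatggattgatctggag
Cyp2c67: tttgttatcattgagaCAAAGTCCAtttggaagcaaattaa
Cyp2c40: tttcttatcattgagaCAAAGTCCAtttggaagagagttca
Cyp2c68: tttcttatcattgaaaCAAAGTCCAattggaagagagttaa
Cyp2c69: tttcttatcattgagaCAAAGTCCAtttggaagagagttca
Cyp2c70: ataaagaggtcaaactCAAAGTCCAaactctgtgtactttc
Cyp2d9: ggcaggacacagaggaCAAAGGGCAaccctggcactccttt
Cyp2d10: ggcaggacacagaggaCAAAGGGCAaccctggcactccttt
Cyp2d26: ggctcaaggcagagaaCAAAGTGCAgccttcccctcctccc
All of these matches lie on the gene strand, 45 to 125 bases before the RefSeq gene start, and for Cyp2d9 that start lies 18940 bases from the start in the deposited table. Cyp2c37 and Cyp2c50 share the form CAAAGTGCA, and Cyp2c67, Cyp2c40, Cyp2c68, Cyp2c69 and Cyp2c70 the form CAAAGTCCA. The C/EBP letters occurred in 12 member promoters, among them all 5 of 2B, against 10.8% of all promoters. These matches are letters in a window, not measured binding.

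Levels differed widely among the 40 genes. The highest mean levels over the libraries were those of Cyp2f2, Cyp2d10, Cyp2d26 and Cyp2d9, each at 233 FPKM or more in every library, followed by Cyp2a12, Cyp2c23, Cyp2c70 and Cyp2j5. Cyp2b13, Cyp2b19, Cyp2b23, Cyp2j7 and Cyp2j11 had a count of 0 in all 6 libraries, a result that leaves room for 3 counts, or 0.0507 CPM at the lowest depth (counting error only). Cyp2c65, Cyp2c66 and Cyp2j12 had a count above 0 in 1 library each, of 7, 3 and 8. Cyp2c39, Cyp2b9 and Cyp2j13 had 10 counts or more in some library but a mean below 0.5 FPKM. The remaining 29 genes passed that limit and were tested. Cyp2b9 and Cyp2b13 are known as genes of female liver, and all 6 libraries had the transcript pattern of males, with 4 Y-linked genes summing to 48.1 to 60.7 CPM and Xist at no more than 0.211 CPM.

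**Figure D1:**
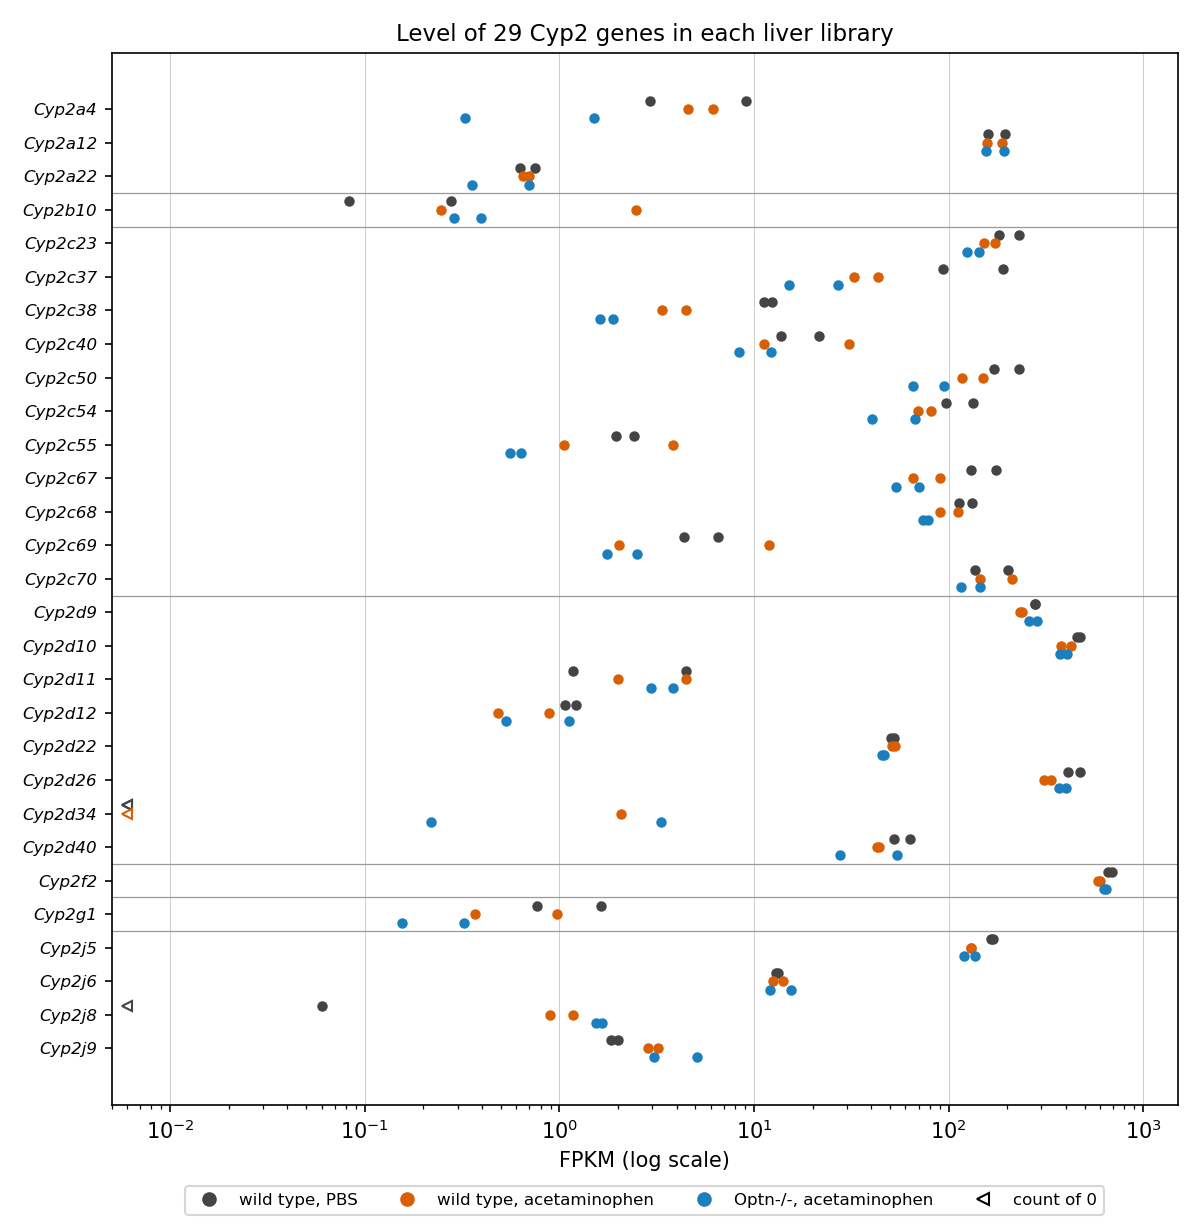
FPKM of the 29 tested Cyp2 genes on a log axis, 1 point per library, coloured by group, with lines dividing the subfamilies. The points of Cyp2c37 and Cyp2c38 fall from control to treated wild type to knockout without overlap, while those of Cyp2f2, Cyp2d10 and Cyp2a12 lie close together.

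Acetaminophen against PBS in wild type is the first comparison. Cyp2c37 and Cyp2c38, enzymes of the arachidonate-metabolising 2C subfamily, fell, and Cyp2j8, a 2J gene close to zero in the controls, rose. That is 3 of 29 members (10.3%) past an adjusted p of 0.05 in edgeR's quasi-likelihood test, where 14.3% of all 11677 genes tested passed. By direction, 2 members fell where 5.92% of all genes did, and 1 rose where 8.36% did. Cyp2j8, which rose, passed the filter on low values only through its treated livers. The FPKM of the 2 groups did not overlap for 14 members that were lower (45.1% of all genes) and 2 that were higher (21.1%). The members' median log2 fold change was 0.02, and that of all genes was 0.03. Fewer cells of a type and less RNA per cell cannot be told apart in whole liver.

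Cyp2c38 was at 12.3 and 11.2 FPKM in the controls, 3.38 and 4.46 in treated wild types and 1.62 and 1.89 in treated knockouts. The 3 groups did not overlap. After acetaminophen it fell by 1.38 ± 0.18 (log2 fold change ± SE, edgeR, n = 2 a group, adjusted p = 0.0096). Without control replicate 3 the fall was 1.29 with an edgeR adjusted p of 0.0544. Only 1.86% of the 75-base stretches of its transcript occur in another gene, Cyp2c39, the smallest share among the called 2C genes.

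Cyp2c37 was at 190 and 93.8 FPKM in the controls, 32.6 and 43.5 in treated wild types and 15.1 and 27.1 in treated knockouts. Control replicate 3 stood well above control replicate 6, and the 3 groups did not overlap. It fell by 1.70 ± 0.42 on the log2 scale (edgeR adjusted p = 0.0483), which is just inside the threshold. Cyp2c37 did not pass in the fit of only the 2 groups compared. The adjusted p was 0.158 without control replicate 3, 0.184 and 0.114 without wild-type acetaminophen replicates 1 and 4, and 0.0670 and 0.0665 without knockout replicates 4 and 5, all by edgeR. Of its transcript, 13.8% of 75-base stretches occur in other genes, mostly Cyp2c50, whose coding sequence is 96.1% identical.

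Cyp2j8 had counts of 0 and 8 in the controls, 127 and 105 in treated wild types and 211 and 158 in treated knockouts. Every treated library was above both controls, and its level stayed below 2 FPKM throughout. It rose by 5.10 ± 0.98 on the log2 scale (edgeR adjusted p = 0.0248). The size of that fold rests on 8 control counts and ran from 1.53 to 9.96 over the alternatives. The call ended in the fit of only the 2 groups compared. It also ended without wild-type acetaminophen replicate 1 or 4, or without knockout replicate 4 or 5. No 75-base stretch of any 2J transcript occurs in another gene.

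The most abundant members gave small values. Cyp2f2, which activates naphthalene in lung and liver, was at 693 and 657 FPKM in the controls and at 582 and 603 in treated wild types. The log2 fold change was 0.02 ± 0.12 (edgeR, 95% interval -0.28 to 0.32). FPKM divides by the whole library while the fold change uses TMM scaling, and division by total count alone moved the median of all genes from 0.03 to -0.19 in this comparison, so the FPKM values read about 0.2 lower than the fold changes; Cyp2f2 then has a value of -0.20.

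Among 2D genes, which are numerous in mice and held 35.6% and 39.1% of the summed Cyp2 FPKM of the controls, none of the 8 tested passed. Cyp2d10 was at 471 and 459 FPKM in the controls against 425 and 378 in treated wild types. Its log2 fold change was 0.00 ± 0.14 (edgeR, 95% interval -0.35 to 0.35). Cyp2d9, a testosterone 16-alpha-hydroxylase known from male liver, was at 277 and 278 FPKM against 233 and 240. Its log2 fold change was -0.02 ± 0.12 (edgeR). Cyp2d26 was at 471 and 413 FPKM against 335 and 309, which gave -0.25 ± 0.14 on the log2 scale (edgeR adjusted p = 0.286). On the FPKM scale these 3 genes were lower in both treated mice than in both controls, while on the TMM scale their values lay between -0.25 and 0.00.

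The 2A genes overlapped between the groups. Cyp2a12, a bile acid hydroxylase, was at 195 and 160 FPKM in the controls and at 187 and 157 in treated wild types. Its log2 fold change was 0.17 ± 0.19 (edgeR, 95% interval -0.29 to 0.63). Cyp2a22 stayed between 0.356 and 0.745 FPKM in all 6 libraries. Cyp2a4, a steroid 15-alpha-hydroxylase, was at 2.91 and 9.05 FPKM in the controls, 4.58 and 6.13 in treated wild types and 0.328 and 1.498 in treated knockouts. The treated wild types lay between the controls (log2 fold change 0.05 ± 0.75, edgeR), and both knockouts lay below all other libraries.

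The closest relative of Cyp2a4 is Cyp2a5, the coumarin hydroxylase, whose coding sequence is 98.5% identical and differs at 23 of 1482 bases. The stretch of coding bases 595 to 669 is shown because 5 of those differences fall in it, given in capitals. The longest run without a difference is 216 bases.
Cyp2a4: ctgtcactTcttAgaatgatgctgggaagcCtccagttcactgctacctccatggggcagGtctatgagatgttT
Cyp2a5: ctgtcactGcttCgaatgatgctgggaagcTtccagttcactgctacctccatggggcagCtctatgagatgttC
Cyp2a5 was at 651 and 419 FPKM in the controls, 95.8 and 143 in treated wild types and 27.9 and 34.8 in treated knockouts. Of the Cyp2a4 transcript, 20.97% of 75-base stretches occur in Cyp2a5, so part of the count of Cyp2a4 is uncertain, and the labels do not say how shared reads were assigned.

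The remaining 2C genes that were abundant in the controls did not pass in wild type in edgeR with TMM scaling. Cyp2c50 was at 229 and 171 FPKM in the controls, 117 and 150 in treated wild types and 65.9 and 94.4 in treated knockouts. The groups did not overlap, and the value in wild type was -0.38 ± 0.24 on the log2 scale (edgeR adjusted p = 0.327). Cyp2c67 was at 175 and 130 FPKM, then 65.7 and 90.5, then 70.8 and 53.8, which in wild type gave -0.76 ± 0.24 on the log2 scale (edgeR adjusted p = 0.0918). It lay below both controls in all 4 treated mice. In wild type Cyp2c67 passed in 4 of 15 alternatives, which were scaling by total count, DESeq2 and both limma fits. The bile acid enzyme Cyp2c70, which makes muricholic acids in mice, was at 202 and 137 FPKM in the controls and 146 and 212 in treated wild types. Its log2 fold change was 0.28 ± 0.27 (edgeR, 95% interval -0.38 to 0.94). Cyp2c23, an arachidonate epoxygenase, was at 231 and 181 FPKM, then 152 and 174, with -0.13 ± 0.17 on the log2 scale (edgeR).

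Cyp2c40, Cyp2c55 and Cyp2c69 shared a pattern of libraries, noted after their values were seen. Each was highest in wild-type acetaminophen replicate 4, at 30.7, 3.83 and 11.9 FPKM, against 11.2, 1.06 and 2.02 FPKM in replicate 1. Replicate 4 is also the library with the neuronal markers, and their part was not tested. Cyp2c40 and Cyp2c69 share 57.1% and 43.2% of their 75-base stretches with other genes. Cyp2b10, the classical target of CAR, followed the same library, with counts of 12 and 50 in the controls, 38 and 404 in treated wild types, and 72 and 42 in treated knockouts. Its log2 fold change of 3.05 ± 1.12 did not pass (edgeR adjusted p = 0.125) and was 0.66 without replicate 4. DESeq2 did call Cyp2b10 higher in treated wild types. Cyp2b9, below the filter and named after its values were seen, had counts of 10 and 67 in the controls, 77 and 79 in treated wild types and 0 in both knockouts.

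Among 2J genes, Cyp2j5, an arachidonate epoxygenase of liver and kidney, was at 169 and 165 FPKM in the controls and 130 in both treated wild types. Its log2 fold change was -0.15 ± 0.12 (edgeR, 95% interval -0.44 to 0.15). Cyp2j6 stayed between 12.1 and 15.5 FPKM in all 6 libraries. Cyp2j9, known from brain, was at 2.00 and 1.84 FPKM in the controls, 2.86 and 3.22 in treated wild types and 3.07 and 5.10 in treated knockouts. It lay higher in every treated mouse, with 0.87 ± 0.26 in wild type (edgeR adjusted p = 0.0764). DESeq2 did call Cyp2j9 higher in treated wild types. Cyp2g1, known from olfactory mucosa, was at 1.64 and 0.766 FPKM in the controls, 0.973 and 0.369 in treated wild types and 0.325 and 0.155 in knockouts.

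**Figure D2:**
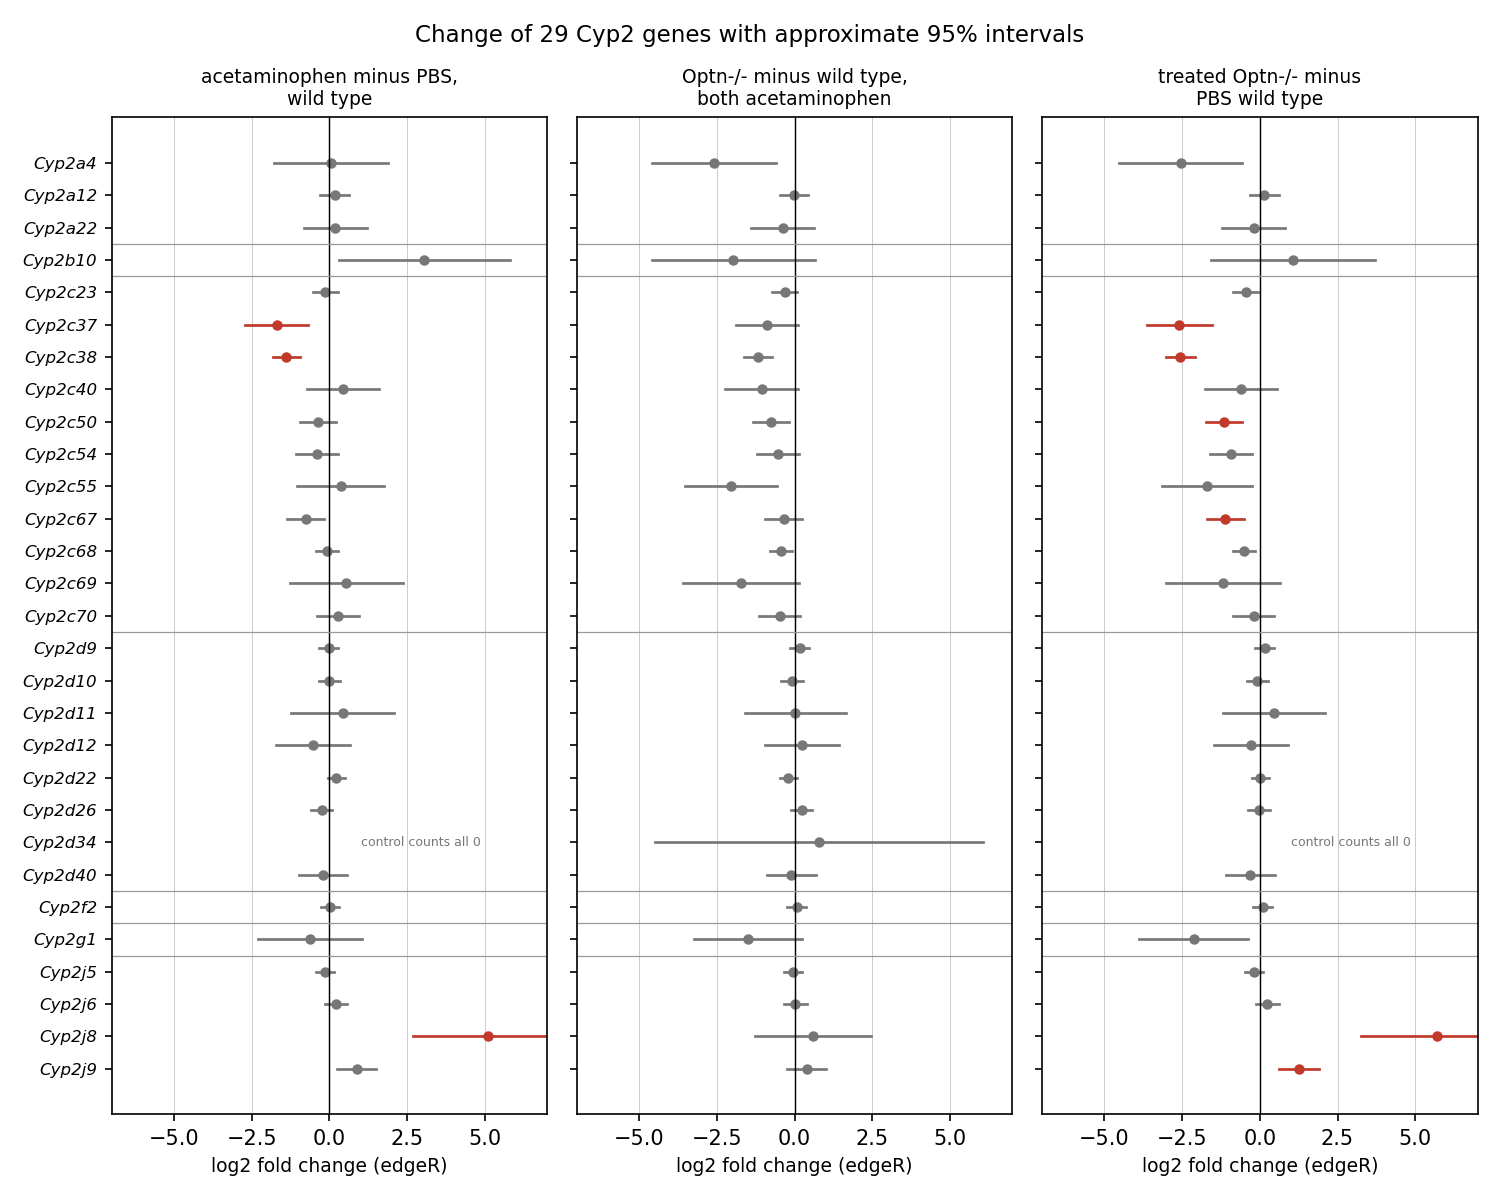
Log2 fold change from edgeR for the 29 tested genes in the 3 comparisons, with approximate 95% intervals, red where the adjusted p is under 0.05; intervals running past 7 are clipped, and Cyp2d34 has no value drawn where both controls have a count of 0. The red points belong to 2C and 2J genes, 3 in the first panel, none in the second and 6 in the third.

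Treated Optn-/- against treated wild type is the second comparison. No member of 29 passed in edgeR, and 12 genes of all tested, or 0.103%, did (0.0514% in each direction). At an unadjusted p under 0.05, 5 members were lower and none was higher, where 3.85% and 4.92% of all genes were. The 5 are Cyp2a4, Cyp2c38, Cyp2c50, Cyp2c55 and Cyp2c68. DESeq2 called 3 of them lower, Cyp2a4, Cyp2c38 and Cyp2c55, and 1.03% of all genes. The value of Cyp2c38 was -1.18 ± 0.18 (edgeR adjusted p = 0.204), and that of Cyp2a4 was -2.60 ± 0.81 (edgeR adjusted p = 0.509).

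The values of the 2C genes lay on one side. All 11 tested had a log2 fold change below 0, from -2.05 for Cyp2c55 to -0.32 for Cyp2c23, with a median of -0.77, while 50.1% of all genes tested lay below 0. Cyp2c37 gave -0.88 ± 0.41 (edgeR, 95% interval -1.89 to 0.12), Cyp2c50 gave -0.77 ± 0.24 and Cyp2c67 gave -0.35 ± 0.24. With the library set as a term, which rests on the control pair, 7 of 11 lay below 0 with a median of -0.18, and without wild-type acetaminophen replicate 4 it was 10 of 11 with a median of -0.31. Leaving out that library moved Cyp2c55 from -2.05 to -0.88, Cyp2c40 from -1.05 to -0.20, Cyp2c67 from -0.35 to -0.13, Cyp2c69 from -1.72 to 0.01 and Cyp2c70 from -0.48 to -0.22. Both knockouts lay below both treated wild types for 8 of the 11, and for 11 of the 29 members, against 15.9% of all genes; both knockouts lay above for 4 members, against 23.1%.

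Outside 2C the 6 abundant genes given here lay between -0.08 and 0.23 on the log2 scale. Other tested members outside 2C ran wider on both sides. Below that range were Cyp2a4 (-2.60 ± 0.81) and Cyp2d22 (-0.21 ± 0.11) among others. Above it were Cyp2j8 (0.59 ± 0.77) and Cyp2j9 (0.39 ± 0.25) among others. Cyp2f2 was at 641 and 626 FPKM in treated knockouts, with 0.07 ± 0.12 (edgeR, 95% interval -0.23 to 0.37). Cyp2d10 was at 405 and 372 FPKM, with -0.08 ± 0.14 (edgeR). Cyp2d9 was at 284 and 259 FPKM, with 0.17 ± 0.12, and Cyp2d26 at 371 and 400 FPKM, with 0.23 ± 0.14 (edgeR). Cyp2a12 was at 155 and 192 FPKM, with -0.02 ± 0.19 (edgeR, 95% interval -0.48 to 0.44). Cyp2j5 was at 120 and 137 FPKM, with -0.05 ± 0.12 (edgeR). These intervals bound the difference and do not show that the genotypes are alike.

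Treated Optn-/- against wild-type controls shares the controls with the first comparison and the knockouts with the second. Cyp2c37, Cyp2c38, Cyp2c50 and Cyp2c67 fell, and Cyp2j8 and Cyp2j9 rose, which is 6 of 29 members (20.7%) in edgeR against 20.3% of all genes. By direction, 4 fell where 8.05% of all genes did, and 2 rose where 12.2% did. Of the 2, Cyp2j8 passed the filter on low values only through treated livers. Groups did not overlap for 17 lower members (44.5% of all genes) and 4 higher ones (24.3%). The called members are 4 of 11 tested in 2C and 2 of 4 in 2J, with none among the 14 of the other subfamilies. None of these 6 passed in the second comparison. Without untreated Optn-/- livers, a difference between the genotypes in their response to acetaminophen cannot be told apart from one that was there before it.

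Cyp2c38 fell by 2.56 ± 0.19 (edgeR adjusted p = 0.00169) and kept its call in all 15 alternatives. Cyp2c37 fell by 2.58 ± 0.43 (edgeR adjusted p = 0.0129). Without knockout replicate 4 or 5 the edgeR adjusted p for Cyp2c37 was 0.0654 or 0.0537.

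Cyp2c50 fell by 1.14 ± 0.24 (edgeR adjusted p = 0.0242). Cyp2c67 fell by 1.11 ± 0.25 (edgeR adjusted p = 0.0285). Both calls ended with the library set as a term (edgeR adjusted p = 0.106 and 0.124). In this comparison that term leaves the knockouts against control replicate 6, so it repeats leaving out control replicate 3 and is not a separate check. Both calls also ended without knockout replicate 4 or 5. Over the alternatives the log2 fold change ran from -1.42 to -0.90 for Cyp2c50 and from -1.35 to -0.87 for Cyp2c67. Cyp2c50 and Cyp2c67 share 17.8% and 36.0% of their 75-base stretches with other genes.

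Cyp2j8 rose by 5.69 ± 0.998 (edgeR adjusted p = 0.0149), a call that ended without knockout replicate 4 (0.0579) or 5 (0.0706). Cyp2j9 rose by 1.26 ± 0.26 (edgeR adjusted p = 0.0229). That call ended with the library set as a term (edgeR adjusted p = 0.0906), which again repeats leaving out control replicate 3. The call also ended without control replicate 6 or knockout replicate 5. Over the alternatives the log2 fold change of Cyp2j9 ran from 0.86 to 1.57.

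The 2C genes lie on chromosome 19 between 39007019 and 44029208 (GRCm38), 13 of them in a run that ends with Cyp2c70 at 40187333 and Cyp2c23 3817689 bases beyond. The called genes Cyp2c38, Cyp2c67, Cyp2c37 and Cyp2c50 are not neighbours as a block, as the plot by position shows: Cyp2c68, Cyp2c40 and Cyp2c69 lie between Cyp2c67 and Cyp2c37, and Cyp2c54 between Cyp2c37 and Cyp2c50. The HNF4 letters shown above occur in Cyp2c37, Cyp2c50 and Cyp2c67 and also in Cyp2c40, Cyp2c68, Cyp2c69 and Cyp2c70, which did not pass, and are not in the window of Cyp2c38.

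**Figure D3:**
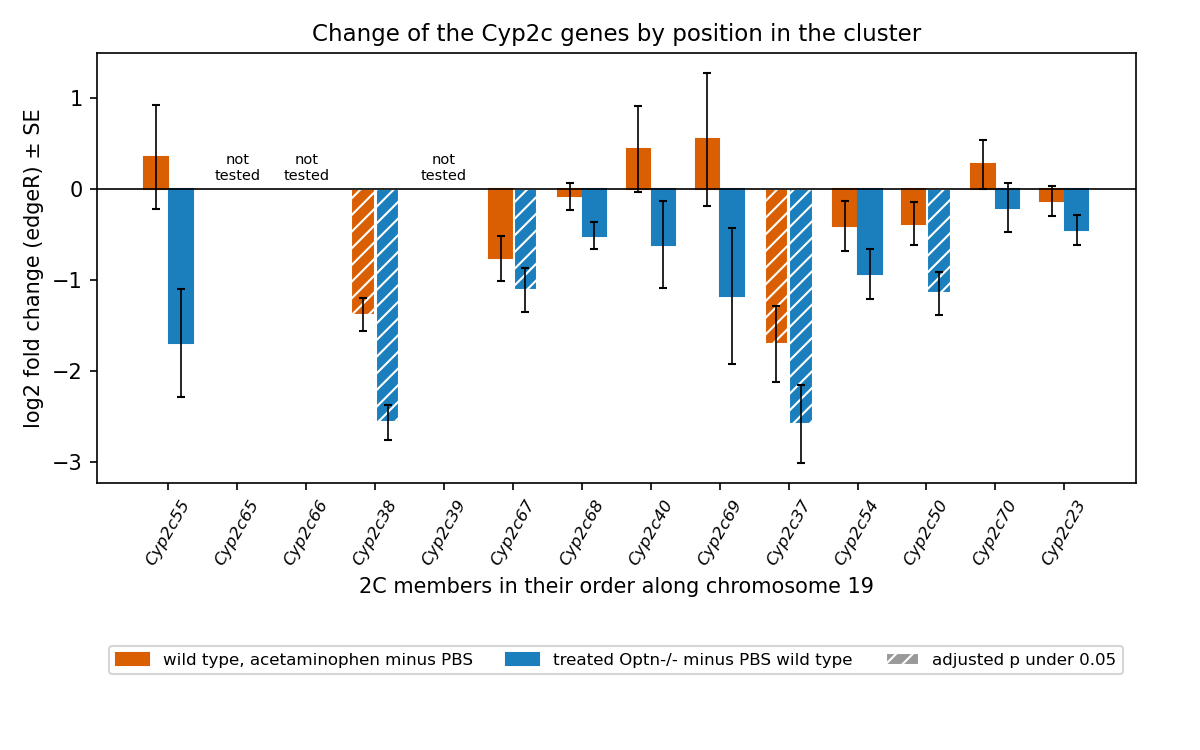
Log2 fold change ± SE from edgeR for the 14 genes of 2C in their order along chromosome 19, after acetaminophen in wild type and in Optn-/- against the same controls; hatched bars have an adjusted p under 0.05. All 11 knockout bars lie below 0, and Cyp2c37 and Cyp2c38 reach furthest.

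Summed over members, 2C took 1326 and 965 FPKM in the controls, 692 and 914 in treated wild types and 548 and 596 in treated knockouts. Its share of the Cyp2 total was 35.6% and 29.8%, then 25.5% and 32.0%, then 20.7% and 22.2%. The summed FPKM did not overlap between the 3 groups. The shares of controls and treated wild types overlapped, and both knockouts lay below the rest. The 2D sum was 1326 and 1269 FPKM in the controls, 1093 and 1027 in treated wild types and 1168 and 1109 in knockouts. The 2A sum was 157 to 198 FPKM over the 6 libraries and the 2J sum 137 to 184 FPKM. All sums and shares leave out Cyp2a5, Cyp2c29 and Cyp2e1. Cyp2a5 was at 651 and 419 FPKM in the controls, 95.8 and 143 in treated wild types and 27.9 and 34.8 in knockouts. In the controls Cyp2c29 was at 305 and 294 FPKM and Cyp2e1 at 3293 and 2941 FPKM. These sums are given as values with no test.

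**Figure D4:**
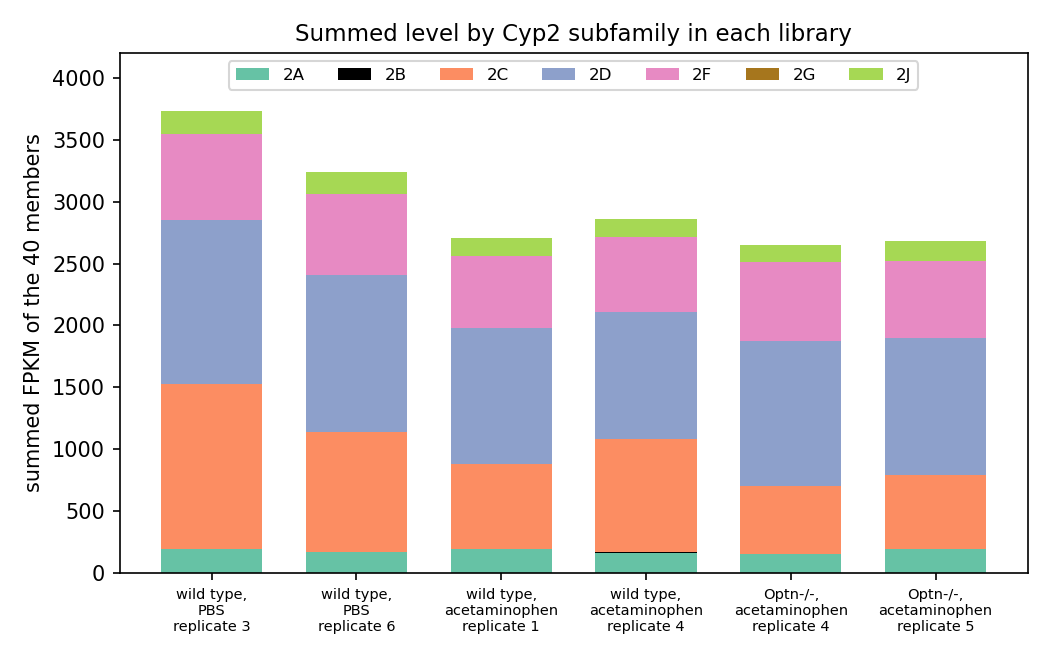
Summed FPKM of the 40 members in each library, stacked by subfamily; 2B and 2G are too low to see. The 2C part is 1326 FPKM in control replicate 3 and 548 FPKM in knockout replicate 4, and the 2D part stays between 1027 and 1326 FPKM.

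Other genes of the P450 system were read from lists. In treated wild types 8.36% of all genes tested rose and 5.92% fell in edgeR. Of 6 redox partners, 1 fell in treated wild types, Cyb5b, a cytochrome b5 (log2 fold change -0.64 ± 0.14, edgeR adjusted p = 0.0353). Of 12 genes of haem synthesis and breakdown, 1 rose and 3 fell. The haem oxygenase gene Hmox1 rose by 6.81 ± 0.55, and the synthesis genes Cpox and Alas1 fell by 1.81 ± 0.17 and 1.12 ± 0.24. Of 24 regulators of P450 genes, 2 rose and 7 fell in edgeR. Among them Nr1i3, which encodes CAR, fell by 2.31 ± 0.13, Foxa3 fell by 0.92 ± 0.12 and the D-box factor gene Dbp fell by 1.90 ± 0.28. The 2 that rose, named after their values were seen, were Ahr at 1.07 ± 0.16 and Hnf4a at 0.75 ± 0.17.

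Of 18 tested P450 genes of families 1, 3 and 4 and other members of family 2, none rose and 5 fell in treated wild types. Of all genes tested, 8.36% rose and 5.92% fell. The 5 included the fatty acid hydroxylase genes Cyp4a10 (-2.97 ± 0.21) and Cyp4a14 (-3.91 ± 0.41) and Cyp2a5 (-1.96 ± 0.29). In treated knockouts against treated wild types, 2 of the 18 rose, Cyp4a10 at 3.51 ± 0.21 (edgeR adjusted p = 0.0103) and Cyp4a14 at 4.77 ± 0.42 (edgeR adjusted p = 0.0401). None fell, and 0.0514% of all genes passed in each direction. The 18 had a median of -0.17, with values on both sides of 0. Cyp2c29, a 2C gene left out of the members by name, gave -1.36 ± 0.23. Lower values were not confined to the 2C subfamily. Named after their values were seen, Cyp2a5 gave -1.96 ± 0.29 and Cyp1a2 -1.22 ± 0.36. Cyp3a11 gave -0.96 ± 0.30 and Cyp2e1 -0.59 ± 0.19. Pericentral hepatocyte markers summed to 11356 and 9827 CPM in the controls, 4007 and 5818 in treated wild types and 3431 and 3000 in knockouts, all 10 detected, with 4 of 9 tested falling and 1 rising in wild type. Cyp2e1, itself a P450 gene, made up most of that sum in every library. It was at 7776 and 6927 CPM in the controls, 3037 and 4190 in treated wild types and 2594 and 2289 in knockouts. The pericentral sum moved with the 2C sum across the groups, and its part in the 2C values was not tested. Periportal markers summed to 9200 to 11960 CPM. Leukocyte markers summed to 6.97 and 14.7 CPM in the controls and 58.7 to 146 CPM after acetaminophen.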

How the data were processed

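Liver RNA from 6 mice was sequenced as paired ends after poly(A) selection, per the labels' protocols; one protocol sentence names adipose RNA while the tissue label is liver. The deposited table gives, per the file headers, a count for every gene in each library, whole numbers throughout, and an FPKM value deposited by the authors beside it. The authors' counter, its strand setting and its handling of shared reads were not given in the sources used here. Bowtie 0.12.2 and mm8 are named in the submitters' processing notes, but the coordinates equal those of GENCODE M21 (GRCm38) for 94.2% of 55144 genes and for 38 of the 40 members, so they are given as GRCm38. All 207863 counts of 0 are listed at 0.0001 FPKM.

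Counts were tested with edgeR 4.0.16 (R 4.3.3; quasi-likelihood, TMM scaling, 6 libraries, 3 group means) on the 11677 genes whose mean FPKM reached 0.5, with Benjamini-Hochberg adjustment over all of them and a threshold of 0.05. The common coefficient of variation was 0.277 on 3 residual degrees of freedom. SE is the log2 fold change divided by the square root of F, and 95% intervals use the moderated degrees of freedom. Exact permutation of 2 against 2 mice cannot go below p = 0.333 and was not used. The labels describe separate animals; p-values measure the spread between them. Alternatives used DESeq2 1.42.0, limma 3.58.1, other scalings and filters, a library set term (skeletal muscle sum above 20 CPM, a rule set after seeing the data) and leaving out each library. The set differs within a group only for the controls, so its term is estimated from that pair. In the first comparison the term therefore gives the contrast left without control replicate 6, and in the third that without control replicate 3. The fit was tested on simulated data.

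The members and gene lists were chosen with earlier results of these data known. Named by rule are all members past the threshold in any comparison, the 3 with the highest mean FPKM in each subfamily, and up to 3 genes of each list with the smallest p in the first comparison. Other genes are named for low counts, for their place or motif, or after their values were seen. Motifs and shared 75-base stretches were counted by exact match in RefSeq promoters and GENCODE transcripts.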

Additional observations from a re-analysis of the deposited data

How the results depend on the processing

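The numbers of members called changed with the tool and the libraries. In the first comparison (3 called) DESeq2 called 7, the fit of only the 2 groups compared called 1, and leaving out each library in turn gave 1 to 3. In the second (0 called) DESeq2 called 3, and every other alternative called 0. In the third (6 called) DESeq2 called 13, limma on log2(FPKM + 0.5) called 10, the library set term called 3, and leaving out each library gave 1 to 7. The cause of the differences between tools was not tested; the fits without a library hold fewer samples. No called value changed sign in any alternative, while 67 uncalled values of the 19 named genes did. Over the subfamily sums, leaving out the highest member changed the log2 ratio of knockouts to treated wild types to -2.06 for 2A and 0.19 for 2D, and for 2J gave 0.20 for treated wild types over controls and 0.17 for knockouts over treated wild types. No paired analysis was run because the labels give no pairing between animals of different groups.

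With 2 mice a group the precision is set by their number more than by depth: a member at 1 FPKM still had over 100 counts, but intervals of low members such as Cyp2a4 spanned about 4 log2 units. Without a library, the arm of 1 mouse is assumed to vary like the other groups.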

Other observations

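Entries of the same subfamilies without a coding transcript were counted too, and those named here were chosen after their values were seen. Cyp2d37-ps, a pseudogene entry among the 2D genes, was at 26.1 and 29.8 FPKM in the controls, 10.2 and 11.8 in treated wild types and 14.6 and 11.6 in treated knockouts. All treated libraries lay below both controls. It fell by 1.14 ± 0.17 in treated wild types (log2 fold change, edgeR adjusted p = 0.0133) and by 0.91 ± 0.17 in treated knockouts against controls (edgeR adjusted p = 0.018), while no coding 2D gene passed. Cyp2a21-ps, which overlaps Cyp2a22 on the other strand, had counts of 269 and 218 in the controls, 36 and 116 in treated wild types and 0 in both knockouts. Gm15883, a long non-coding entry opposite Cyp2f2, had counts of 349 and 430 in the controls, 840 and 594 in treated wild types and 626 and 592 in knockouts. It rose by 1.09 ± 0.26 in treated wild types (edgeR adjusted p = 0.0449), and without a stated use of strand its reads cannot be told apart from those of Cyp2f2, with which it shares 7.37% of the 75-base stretches of Cyp2f2.

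Cyp2d34, also chosen after its values were seen, had counts of 0 in both controls and in wild-type acetaminophen replicate 1, 444 in replicate 4, and 778 and 42 in the knockouts. It was present in 3 of the 4 treated livers and in neither control. No fold is given, because the control counts are all 0. Its closest relative, Cyp2d11, has a coding sequence 91.5% identical and ran from 1.17 to 4.46 FPKM, highest in control replicate 6 and wild-type acetaminophen replicate 1.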
